A study of Mus musculus with 12 samples.

Results

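The interleukin 12 (IL-12) family, its receptor chains and interleukin 10 (IL-10) with its receptor were followed in mouse macrophages that carried or lacked a Cre recombinase directed at Hdac3. The set holds 10 genes chosen by name: the cytokine subunits Il12a, Il12b, Il23a, Il27 and Ebi3, the IL-12 receptor chains Il12rb1 and Il12rb2, Il10, and the IL-10 receptor chains Il10ra and Il10rb. Each has 1 entry among the 54532 genes of the deposited table, and 9 of the 10 passed the filter on low counts that left 14286 genes for testing. Il23a did not pass and is given as counts.

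The cells were bone marrow-derived macrophages (BMDM), grown from marrow of mice aged 8 weeks in DMEM with 10 ng/ml of M-CSF, the growth factor that turns marrow precursors into macrophages, 10% serum and 1% penicillin and streptomycin. Total RNA was taken with TRIzol. Of 4 groups with 3 libraries each, untreated Hdac3f/f cells carried floxed Hdac3 alleles and no Cre, and Hdac3f/f cells with lipopolysaccharide (LPS) received 500 ng/ml of this bacterial Toll-like receptor 4 ligand for 4 h. Untreated Lyz2-Cre-Hdac3f/f cells (below, Lyz2-Cre cells) carried the same floxed alleles and Cre under the myeloid Lyz2 gene, and the last group was Lyz2-Cre cells with the same LPS dose and time. Both genotypes thus carry floxed Hdac3, no group has Cre without floxed alleles, and a floxed gene is lost only in cells that made Cre. The labels do not say that the libraries of a group came from separate animals, so p-values measure the spread between these libraries, which may be technical.

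IL-12 cytokines are pairs of subunits that different genes encode, and they share parts. Il12b pairs with Il12a to form IL-12 and with Il23a to form IL-23, while Ebi3 pairs with Il27 to form IL-27 and with Il12a to form IL-35. Macrophages and dendritic cells release IL-12 and IL-23 after Toll-like receptor signals and so direct T cells and natural killer (NK) cells towards interferon gamma or IL-17, while IL-10, which macrophages also make after LPS, acts back on them through Il10ra, Il10rb and STAT3 to damp inflammatory genes. HDAC3 is a histone deacetylase that works within the NCoR and SMRT corepressor complexes.

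Library totals lay between 16553432 and 18706990 counts. Levels are CPM, the usual count scaled for library size, with sizes set by the trimmed mean of M values (TMM). Differences are log2 fold changes ± standard error from edgeR's quasi-likelihood test with 3 libraries a group, and a difference was called at a Benjamini-Hochberg adjusted p under 0.05 over all tested genes. Summed over the gene, Hdac3 lay between 36.3 and 39.7 CPM in untreated Hdac3f/f and between 33.1 and 36.6 CPM in untreated Lyz2-Cre cells, and was not called in either genotype comparison (log2 -0.14 ± 0.09 without and -0.09 ± 0.09 with LPS), and since the position of the floxed part is not given, this count does not check the deletion. Lyz2, which carries Cre, lay between 9318 and 12351 CPM in the 6 Hdac3f/f libraries and between 5181 and 7728 CPM in 5 Lyz2-Cre libraries, but at 31.0 CPM in replicate 1 of untreated Lyz2-Cre cells. That library stands apart, and whether it has the labelled genotype was not tested. Results for the 9 tested genes and counts of the gene lists that change call, or direction beyond rounding, without it are given both ways. Of 8 macrophage markers all were found, with summed levels from 5169 to 6264 CPM in untreated and from 10462 to 11770 CPM in LPS libraries. Markers of other cells were present too. The 7 stromal markers summed to between 315.9 and 1872 CPM in Hdac3f/f and to between 20.02 and 195.4 CPM in Lyz2-Cre libraries. The 6 neutrophil markers summed to between 158.1 and 303.8 CPM in untreated Hdac3f/f and between 48.4 and 125.3 CPM in untreated Lyz2-Cre libraries. With LPS the ranges were 86.4 to 196.7 and 85.1 to 233.6 CPM. Of 4 tested, S100a8 was lower in untreated Lyz2-Cre cells (-1.79, adjusted p = 0.0359), where 11.8% of all tested genes were called. Its adjusted p without the library low in Lyz2 was 0.0718. None of the 4 was called between genotypes with LPS. The 10 T and NK cell markers summed to between 204.1 and 350.2, 126.6 and 174.8, 129.0 and 190.3, and 106.9 and 148.0 CPM in untreated Hdac3f/f, LPS-treated Hdac3f/f, untreated Lyz2-Cre and LPS-treated Lyz2-Cre libraries. The 9 other than Cd4, a subset taken after the values were seen because Cd4 had the highest level of the list and was its 1 gene called lower in Lyz2-Cre cells, ran from 9.78 to 13.5, from 27.5 to 57.0, from 21.8 to 29.3 and from 56.8 to 96.8 CPM in the same order. Their part in the results below was not tested, and in these bulk samples fewer cells of a type and less RNA per cell cannot be told apart.

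Promoter sequence in RefSeq (build GRCm38.p6) was found for 4 of the 10 genes, Il12a, Il12b, Ebi3 and Il12rb2. The 250 bases before the start site are printed 5′ to 3′ along the gene's strand. Windows are shown where they hold a match to a motif of the factors known to act on these genes. Capitals mark every match, on either strand, to the NF-kB motif (GGG and CC with any 5 bases between them), the PU.1 motif GAGGAA or the STAT motif TTCNNNGAA, which occur in 45.8%, 23.3% and 7.02% of 32851 promoter windows of this length. The motifs of C/EBP (TTNNGNAA, in 36.8%), interferon regulatory factors (GAAA given 2 times with any 2 bases between, in 2.98%) and AP-1 (TGANTCA, in 6.75%) were searched too and had no match in these windows.
Il12b, chr11:44399813-44400062, plus strand: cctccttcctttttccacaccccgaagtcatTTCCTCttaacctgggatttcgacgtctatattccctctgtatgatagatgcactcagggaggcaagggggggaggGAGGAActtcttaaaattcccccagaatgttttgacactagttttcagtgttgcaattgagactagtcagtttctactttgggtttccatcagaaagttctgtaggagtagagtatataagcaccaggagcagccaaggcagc
Il12a, start inside the first intron of the longer transcript, chr3:68691174-68691423, plus strand: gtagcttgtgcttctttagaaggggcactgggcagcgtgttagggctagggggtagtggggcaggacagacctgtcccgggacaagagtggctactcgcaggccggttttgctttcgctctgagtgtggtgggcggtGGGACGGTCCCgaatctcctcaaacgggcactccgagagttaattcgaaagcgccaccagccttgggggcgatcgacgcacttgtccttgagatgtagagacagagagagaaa
Ebi3, chr17:55952373-55952622, plus strand: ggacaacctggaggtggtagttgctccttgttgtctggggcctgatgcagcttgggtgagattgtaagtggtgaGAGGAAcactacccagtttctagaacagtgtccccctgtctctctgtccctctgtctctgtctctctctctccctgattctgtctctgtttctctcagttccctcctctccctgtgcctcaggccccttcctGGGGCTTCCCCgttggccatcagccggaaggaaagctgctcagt
Il12rb2, chr6:67376189-67376438, minus strand: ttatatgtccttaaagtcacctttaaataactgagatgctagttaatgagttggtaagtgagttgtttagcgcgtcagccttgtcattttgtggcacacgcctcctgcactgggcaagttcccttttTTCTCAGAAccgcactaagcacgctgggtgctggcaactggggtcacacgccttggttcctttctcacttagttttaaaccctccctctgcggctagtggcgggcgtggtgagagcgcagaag
Il12b held the PU.1 letters at -219 to -214 (on the opposite strand) and at -143 to -138 from its start. Ebi3 held overlapping NF-kB matches on both strands from -44 to -34, and PU.1 letters at -176 to -171. The second Il12a window held NF-kB matches from -113 to -103, whereas the window before the start that the deposited table gives for Il12a held none of the 6 motifs. Il12rb2 held STAT letters at -123 to -115. A match describes letters in this window only and does not show that a factor binds there.

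LPS raised 7 of the 9 tested genes in Hdac3f/f cells and lowered none, and in Lyz2-Cre cells it raised 6 and lowered 1. Among all tested genes 60.1% were called in Hdac3f/f (28% higher and 32.1% lower) and 52.9% in Lyz2-Cre cells (25.2% higher and 27.7% lower). The median log2 fold change of the 9 genes was 2.42 in Hdac3f/f and 1.36 in Lyz2-Cre cells, beside -0.08 for all tested genes in both. Between genotypes without LPS, 2 of the 9 were higher in Lyz2-Cre cells and none lower, where 11.8% of all tested genes were called (5.12% higher and 6.66% lower). With LPS, 2 were higher and 4 lower, where 32.6% were called (15.7% higher and 16.9% lower). The response to LPS itself differed between genotypes, by the interaction of genotype and LPS, for 6 of the 9, 1 in the upward and 5 in the downward direction, where 8.12% of tested genes were called (2.58% and 5.54%). Without the library low in Lyz2 the counts of genes of the set were the same except for the interaction, where 5 were called, while the shares of all tested genes fell to 6.17% between genotypes without LPS and to 4.92% for the interaction. With library totals in place of TMM the splits of all called genes into higher and lower moved from 3993 and 4591 to 2086 and 8242 for LPS in Hdac3f/f, from 3606 and 3958 to 2109 and 6463 for LPS in Lyz2-Cre cells, from 2243 and 2413 to 4465 and 1329 between genotypes with LPS, and from 369 and 791 to 1134 and 448 for the interaction. The genes of the set then split into 7 and 2, 6 and 2, 2 and 4, and 1 and 4. These comparisons share groups and are not independent of each other.

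**Figure D1:**
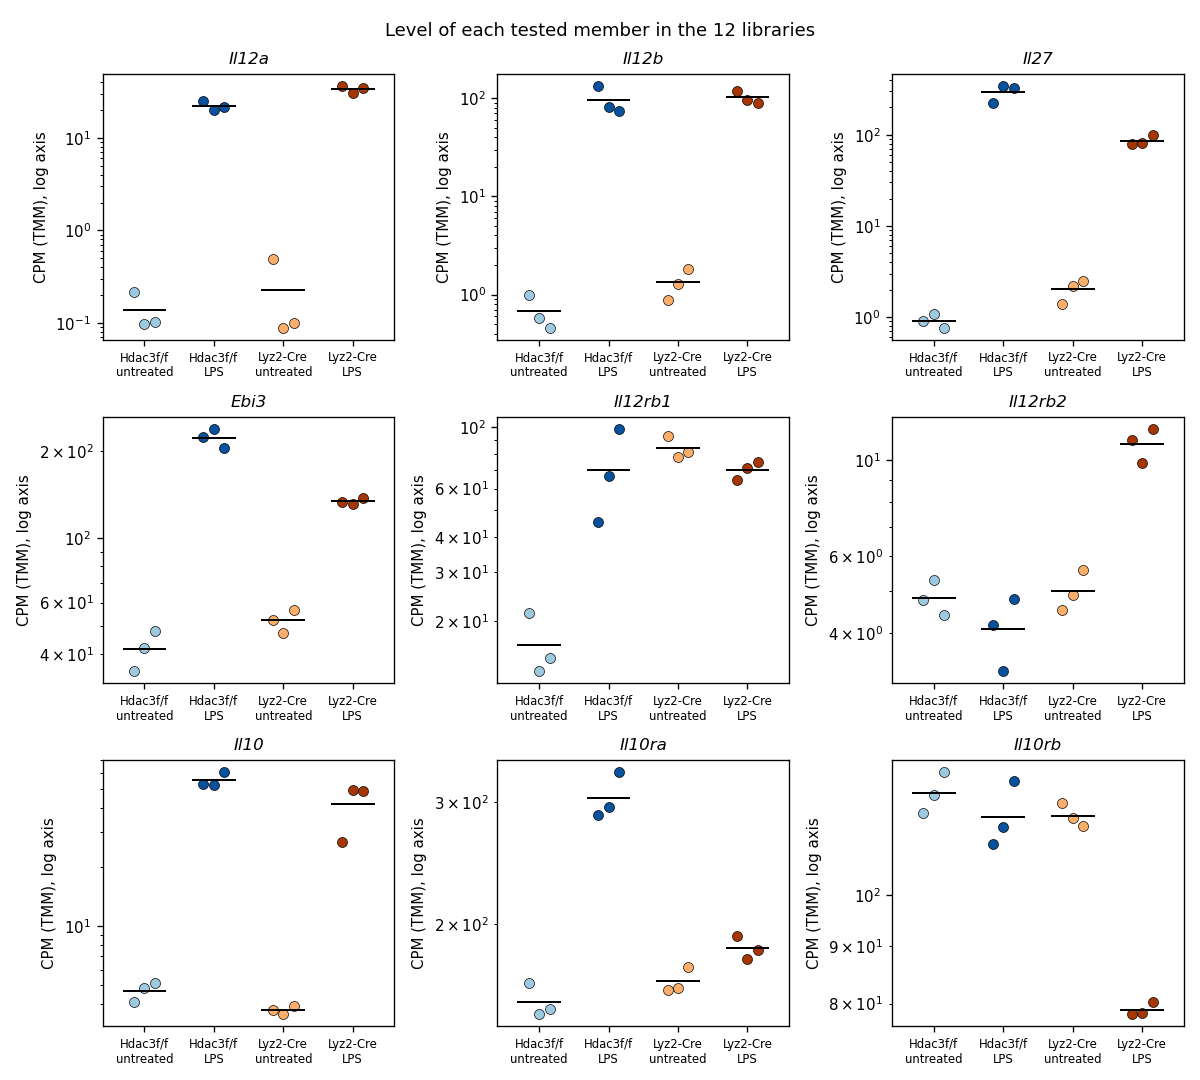
Level of the 9 tested genes in each of the 12 libraries, as CPM on the TMM scale (vertical log axes, 1 panel a gene); points are libraries and lines are the means of the 4 groups. Il27, Ebi3, Il10, Il10ra and Il10rb were lower in all 3 Lyz2-Cre libraries with LPS than in the 3 Hdac3f/f libraries with LPS, and Il12a and Il12rb2 were higher there. Without LPS, Il12rb1 and Il27 were higher and Il10 lower in all Lyz2-Cre libraries. The Il10 differences were not called. Groups without overlap occurred in 43.2% of all tested genes with LPS and in 36.5% without.

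Both IL-12 subunits rose strongly with LPS in each genotype. Il12b (ENSMUSG00000004296, mm10 chromosome 11, 44400063 to 44414033), the subunit shared by IL-12 and IL-23, lay at 0.998, 0.584 and 0.460 CPM in untreated Hdac3f/f cells and at 134.0, 80.5 and 73.3 CPM with LPS. In Lyz2-Cre cells it lay at 0.875, 1.29 and 1.84 CPM untreated and at 119.4, 96.7 and 90.2 CPM with LPS. Every LPS library stood above every untreated library of its genotype, as happened in either direction for 61.4% of tested genes in Hdac3f/f and 65.8% in Lyz2-Cre cells, and the genotypes overlapped both without and with LPS. The rise was 7.10 ± 0.35 log2 units in Hdac3f/f (adjusted p = 2.18e-09) and 6.25 ± 0.32 in Lyz2-Cre cells (adjusted p = 5.80e-09). The genotype difference with LPS was 0.09 ± 0.23 (adjusted p = 0.797), with a 95% interval from -0.42 to 0.60, and that without LPS was 0.94 ± 0.42 (adjusted p = 0.158). The difference between the LPS responses was -0.85 ± 0.48 (adjusted p = 0.320).

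Il12a (ENSMUSG00000027776, chromosome 3, 68690644 to 68698547), the other subunit of IL-12 and also a part of IL-35, was almost silent without LPS, with 9 counts over the 3 untreated Hdac3f/f libraries and 14 over the 3 untreated Lyz2-Cre libraries. With LPS it lay at 25.2, 19.96 and 21.7 CPM in Hdac3f/f and at 36.6, 30.3 and 34.6 CPM in Lyz2-Cre cells, so that the genotypes did not overlap, as was so for 43.2% of all tested genes. The rises were 7.23 ± 0.36 and 7.21 ± 0.33, and the interaction was -0.02 ± 0.69, with a wide 95% interval from -1.51 to 1.47 (1.17, adjusted p = 0.428, without the library low in Lyz2). With LPS, Il12a was 1.52-fold higher in Lyz2-Cre cells (log2 0.60 ± 0.21, adjusted p = 0.0431), a call that was lost without replicate 2 of untreated Hdac3f/f, replicate 2 or 3 of LPS-treated Hdac3f/f or any replicate of LPS-treated Lyz2-Cre cells (adjusted p from 0.0560 to 0.136). Replicate 1 of untreated Lyz2-Cre cells had 0.486 CPM against 0.0890 and 0.0995 in the other libraries of its group, and without it the LPS response in Lyz2-Cre cells was 8.39. The untreated genotype difference, which was not called, turned from 0.62 to -0.57 without it.

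The balance of Il12b to Il12a counts within a library was tested between genotypes under LPS, but 3 libraries a group could not reach the threshold. Its log2 ratio was 2.41, 2.01 and 1.75 in Hdac3f/f and 1.70, 1.67 and 1.38 in Lyz2-Cre cells, a difference of means of -0.47 with no overlap. The exact two-sided permutation test gave p = 0.1, the smallest p that 3 against 3 libraries can give, and 0.2 after adjustment over the 10 ratio tests made. Per kilobase of gene model, Il12b exceeded Il12a by 2.92 to 4.59 times in LPS-treated Hdac3f/f and by 2.26 to 2.82 times in LPS-treated Lyz2-Cre libraries.

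Il23a (ENSMUSG00000025383, chromosome 10, 128296139 to 128298752), which makes IL-23 together with Il12b, gave 24 counts in all 12 libraries. There were 4 and 6 counts in Hdac3f/f cells without and with LPS, and 1 and 13 in Lyz2-Cre cells. With LPS over untreated, the ratio of scaled counts in Lyz2-Cre cells was 16.5, with a 95% counting interval from 2.48 to 700.5. In Hdac3f/f cells that ratio was 2.31 (interval from 0.548 to 11.1), and with LPS the ratio of Lyz2-Cre to Hdac3f/f was 1.78 (0.632 to 5.72), so that neither was distinguishable from 1 at this depth. These intervals cover counting error only, and reads without molecular identifiers are not independent molecules.

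Il27 showed the widest gap between genotypes of the cytokine subunits tested, in opposite directions without and with LPS. Il27 (ENSMUSG00000044701, chromosome 7, 126589010 to 126594941), the subunit that makes IL-27 with Ebi3, lay at 0.911, 1.07 and 0.767 CPM in untreated Hdac3f/f cells and at 1.41, 2.18 and 2.49 CPM in untreated Lyz2-Cre cells. With LPS it lay at 222.3, 344.6 and 321.1 CPM in Hdac3f/f and at 78.8, 81.2 and 98.3 CPM in Lyz2-Cre cells. The genotypes did not overlap in either state: all 3 Lyz2-Cre libraries were above Hdac3f/f untreated and all 3 below it with LPS. Groups without overlap occurred in 36.5% of all tested genes without LPS and in 43.2% with LPS. LPS raised Il27 by 8.32 ± 0.26 log2 units in Hdac3f/f (adjusted p = 5.14e-11) and by 5.40 ± 0.23 in Lyz2-Cre cells (adjusted p = 1.07e-09), and these responses differed by -2.92 ± 0.33 (adjusted p = 5.49e-04). With LPS, Il27 was 3.44-fold lower in Lyz2-Cre cells (log2 -1.78 ± 0.18, adjusted p = 6.73e-05). Without LPS it was 2.20-fold higher (log2 1.14 ± 0.29, adjusted p = 0.0236). That untreated call was lost without replicate 3 of untreated Hdac3f/f (adjusted p = 0.0931) and without replicate 2 (adjusted p = 0.0735) or replicate 3 (adjusted p = 0.0888) of untreated Lyz2-Cre cells, while without the Lyz2-Cre library low in Lyz2 it was 1.33 (adjusted p = 0.0176). The 3′ end of Il27 overlaps 103 bases of Apobr on the opposite strand, and whether the counting used strand is not stated. Apobr was 0.70 log2 units lower in Lyz2-Cre cells both without and with LPS and was not called with LPS in either genotype (-0.25 ± 0.12, adjusted p = 0.0951, and -0.26 ± 0.12, adjusted p = 0.101), with means between 75.4 and 146.4 CPM.

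Ebi3, the partner of Il27, moved the same way under LPS but from a far higher start. Ebi3 (ENSMUSG00000003206, chromosome 17, 55952640 to 55957022) lay at 34.9, 41.9 and 47.8 CPM in untreated Hdac3f/f and at 52.3, 47.3 and 56.8 CPM in untreated Lyz2-Cre cells, and these overlapped. With LPS it lay at 224.6, 238.7 and 204.4 CPM in Hdac3f/f and at 133.0, 131.7 and 137.7 CPM in Lyz2-Cre cells. A wide gap lay between these groups, and 43.2% of all tested genes had groups without overlap there. The rise was 2.42 ± 0.12 in Hdac3f/f and 1.36 ± 0.12 in Lyz2-Cre cells, which differed by -1.06 ± 0.17 (adjusted p = 0.00332). With LPS, Ebi3 was 1.66-fold lower in Lyz2-Cre cells (log2 -0.73 ± 0.12, adjusted p = 9.12e-04), and without LPS the difference was 0.33 ± 0.12 (adjusted p = 0.0926). An antisense gene, Gm16712, overlaps Ebi3 and held 596 counts in all 12 libraries against 21669 for Ebi3.

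Under LPS the ratio of Il27 to Ebi3 counts lay lower in all Lyz2-Cre than in all Hdac3f/f libraries. The exact test of 3 against 3 libraries gives no p under 0.1 and so could not call this. The log2 ratio of Il27 to Ebi3 counts was -0.01, 0.53 and 0.65 in LPS-treated Hdac3f/f and -0.75, -0.70 and -0.49 in LPS-treated Lyz2-Cre libraries, which did not overlap (difference of means -1.03, exact two-sided permutation p = 0.1, adjusted 0.2). Per kilobase, Il27 exceeded Ebi3 by 1.12 to 1.78 times in Hdac3f/f with LPS and reached 0.670 to 0.807 of it in Lyz2-Cre cells with LPS. Without LPS the order was the same in both genotypes: Ebi3 stood far above Il27, and the log2 ratio was -5.23, -5.26 and -5.92 in Hdac3f/f and -5.19, -4.43 and -4.50 in Lyz2-Cre cells. Ranked per kilobase over the 10 genes, Il27 was the highest and Ebi3 the next in Hdac3f/f cells with LPS, and Ebi3 the highest and Il27 the next in Lyz2-Cre cells with LPS, with no overlap of these neighbours in either group.

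**Figure D2:**
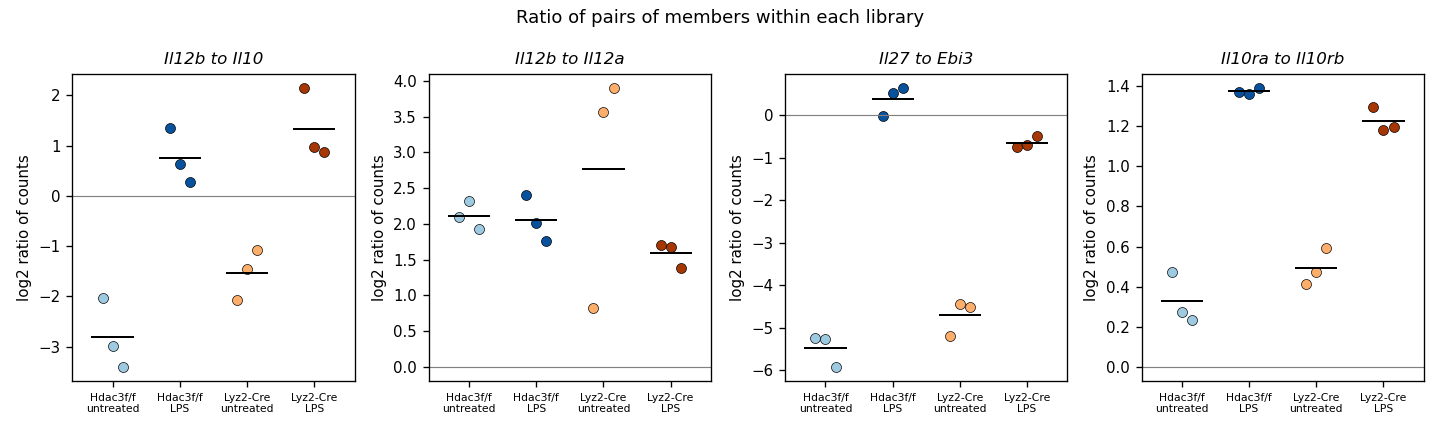
Log2 ratio of the counts of 4 pairs of genes (vertical axes) in each library of the 4 groups; points are libraries and lines are group means. The Il27 to Ebi3 ratio under LPS lies between -0.01 and 0.65 in Hdac3f/f and between -0.75 and -0.49 in Lyz2-Cre libraries, while the Il12b to Il10 ratios of the genotypes overlap, without LPS only through the Lyz2-Cre library at -2.07.

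In Lyz2-Cre cells the receptor chain Il12rb1 stood at or above its LPS level before LPS was given. Il12rb1 (ENSMUSG00000000791, chromosome 8, 70808449 to 70821424), which the receptors for IL-12 and IL-23 share, lay at 21.3, 13.2 and 14.6 CPM in untreated Hdac3f/f and at 92.8, 77.7 and 81.2 CPM in untreated Lyz2-Cre cells. With LPS it lay at 45.5, 66.6 and 98.5 CPM in Hdac3f/f and at 64.3, 71.0 and 75.0 CPM in Lyz2-Cre cells. Untreated Hdac3f/f libraries were below all others, and the Lyz2-Cre groups lay within the wide range of LPS-treated Hdac3f/f cells. All 3 untreated Lyz2-Cre libraries were above the LPS-treated ones, and 65.8% of tested genes had no overlap there in either direction. Without LPS the gene was 5.11-fold higher in Lyz2-Cre cells (log2 2.35 ± 0.25, adjusted p = 1.44e-04; 2.27 without the library low in Lyz2). With LPS the difference was 0.00 in size (± 0.23, adjusted p = 0.997), with a 95% interval from -0.51 to 0.50. LPS raised it by 2.10 ± 0.25 in Hdac3f/f (adjusted p = 8.22e-06). The change in Lyz2-Cre cells was -0.26 ± 0.23 (adjusted p = 0.370). That fall was called with library totals (-0.65) and with only those groups fitted. The responses of the genotypes differed by -2.35 ± 0.34 (adjusted p = 0.00176).

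Il12rb2 went the other way, with a rise under LPS in Lyz2-Cre cells. Il12rb2 (ENSMUSG00000018341, chromosome 6, 67291318 to 67376188), the signalling chain that completes the IL-12 receptor with Il12rb1, lay at 4.77, 5.31 and 4.40 CPM untreated and at 4.17, 3.27 and 4.79 CPM with LPS in Hdac3f/f cells. In Lyz2-Cre cells it lay at 4.52, 4.89 and 5.57 CPM untreated and at 11.1, 9.82 and 11.8 CPM with LPS. The LPS-treated Lyz2-Cre libraries were above all 9 others, which overlapped with each other. The gene was 2.67-fold higher in Lyz2-Cre cells with LPS (log2 1.42 ± 0.18, adjusted p = 2.36e-04), and the difference without LPS was 0.05 ± 0.17 (adjusted p = 0.873). The LPS response was 1.13 ± 0.17 in Lyz2-Cre (adjusted p = 1.04e-04) and -0.24 ± 0.18 in Hdac3f/f cells (adjusted p = 0.265), and the responses differed by 1.37 ± 0.25 (adjusted p = 0.00563). Il12rb2 overlaps Serbp1 on the opposite strand by 6419 bases. Serbp1 lay between 162.3 and 205.7 CPM, and its genotype differences of -0.24 and 0.18 were not called, but its interaction was (0.42).

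These receptor chains are best known from T and NK cells. Of the 10 T and NK cell markers, 6 were higher and 1 (Cd4) lower in Lyz2-Cre cells without LPS, and 7 were higher and 1 (Cd4) lower with LPS. Between genotypes 11.8% of all tested genes were called without LPS and 32.6% with LPS (6.17% and 30.2% without the library low in Lyz2). Without that library 2 of the 10 markers were higher and none lower without LPS, with Cd4 at -0.74 (adjusted p = 0.0791). With LPS 6 were then higher and 1 lower. The NK cell receptor gene Ncr1 had mean levels of 0.621, 2.01, 1.61 and 4.77 CPM in untreated Hdac3f/f, LPS-treated Hdac3f/f, untreated Lyz2-Cre and LPS-treated Lyz2-Cre cells, and the T cell receptor subunit gene Cd3e 0.864, 0.727, 2.31 and 2.25 CPM. The 4 B cell markers summed to between 0.845 and 5.37 CPM, and the 1 tested, Cd79b, fell with LPS in both genotypes (-2.67 and -2.19) and was not called between them. The dendritic cell list, 7 of whose 9 markers were tested, summed to between 29.8 and 56.3 CPM in all libraries, and its marker Cd209a had 0 counts. LPS raised 3 of the 7 and lowered 1 in each genotype. In untreated Lyz2-Cre cells Ccr7 was higher (1.56, adjusted p = 0.00211) and Clec10a lower (-0.80, adjusted p = 0.0293; 0.0877 without the library low in Lyz2). In LPS-treated Lyz2-Cre cells Zbtb46 was higher (1.09, adjusted p = 0.0313) and Clec10a lower (-1.05, adjusted p = 0.00987). Mast cell and basophil markers were higher in Lyz2-Cre cells for 6 of 8 genes without LPS (4 without the library low in Lyz2), and with LPS 5 were higher and 1, Hdc, lower. Whether these cells contributed to Il12rb1 or Il12rb2 was not tested.

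Il23r, the chain that pairs with Il12rb1 in the IL-23 receptor and the nearest tested gene on the other side of Il12rb2, at 46.7 kb, had a pattern of its own. It lay at 0.130, 0 and 0.102 CPM in untreated Hdac3f/f, at 1.41, 1.47 and 1.04 CPM in untreated Lyz2-Cre, at 9.38, 7.25 and 12.8 CPM in LPS-treated Hdac3f/f and at 14.8, 14.7 and 12.5 CPM in LPS-treated Lyz2-Cre libraries. Without LPS all 3 Lyz2-Cre libraries were above the Hdac3f/f libraries, where 36.5% of all tested genes had groups without overlap. With LPS the Il23r groups overlapped. In untreated cells the genotypes differed by 3.94 ± 0.50 (adjusted p = 4.88e-04), on 5 counts against 83. Under LPS the difference was 0.51 ± 0.25 (adjusted p = 0.125), and the interaction was -3.42 ± 0.59 (adjusted p = 0.00389). Il23r and Il12rb1, the chains of the IL-23 receptor, were thus both higher in untreated Lyz2-Cre cells and not called with LPS.

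**Figure D3:**
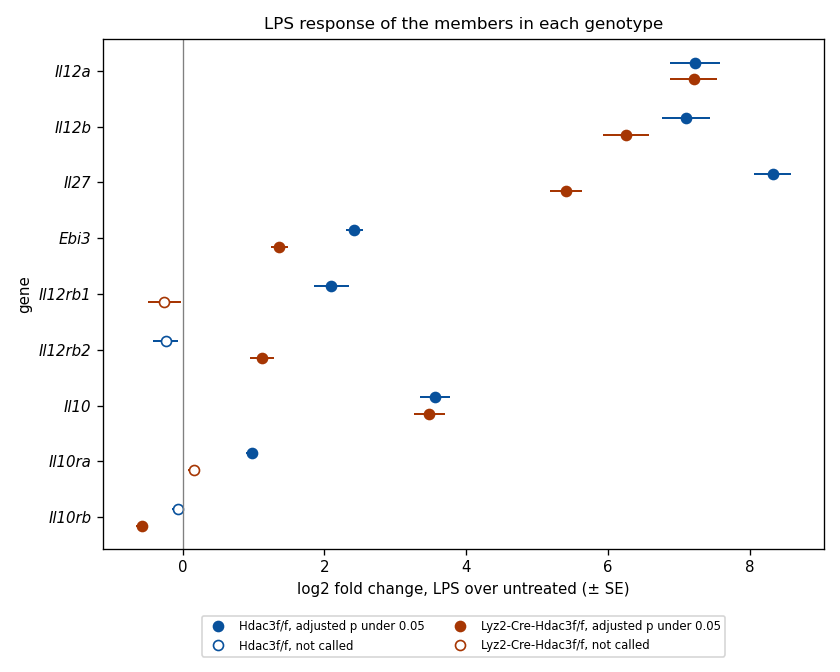
Log2 fold change of each tested gene with LPS over untreated (horizontal axis) in Hdac3f/f and in Lyz2-Cre cells, with the standard error as a bar and calls as filled points. Il27 rose by 8.32 in Hdac3f/f and by 5.40 in Lyz2-Cre cells, and Il12rb1 and Il10ra were called in Hdac3f/f only, with called interactions of -2.35 and -0.82.

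Il10 rose in both genotypes, and neither its level nor its rise was called different between them. Il10 (ENSMUSG00000016529, chromosome 1, 131019845 to 131024974), the anti-inflammatory cytokine, had 4.12, 4.82 and 5.11 CPM without LPS and 52.6, 52.2 and 60.8 CPM after it in the Hdac3f/f genotype. In Lyz2-Cre cells it lay at 3.74, 3.56 and 3.93 CPM untreated and at 26.8, 49.5 and 49.0 CPM with LPS. In each state all 3 Lyz2-Cre libraries were below the Hdac3f/f libraries, as close as 3.93 against 4.12 and 49.5 against 52.2 CPM, and groups without overlap occurred in 36.5% and 43.2% of all tested genes. The rises were 3.56 ± 0.22 and 3.48 ± 0.22, and the interaction was -0.08 ± 0.29 (adjusted p = 0.905), with a 95% interval from -0.71 to 0.55. Untreated genotypes differed by -0.32 ± 0.22 (adjusted p = 0.359, 95% interval from -0.80 to 0.16). Under LPS they differed by -0.40 ± 0.19 (adjusted p = 0.117, 95% interval from -0.81 to 0.01). Without replicate 1 of LPS-treated Lyz2-Cre cells, at 26.8 CPM, the difference with LPS was -0.16.

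The balance of Il12b to Il10 is a common measure of how inflammatory a macrophage response is. The exact test of 3 against 3 libraries gives no p under 0.1, so it could not call a difference between the genotypes. With LPS the log2 ratio of Il12b to Il10 was 1.35, 0.62 and 0.27 in Hdac3f/f and 2.15, 0.97 and 0.88 in Lyz2-Cre libraries. These overlapped (difference of means 0.59, exact two-sided permutation p = 0.4). Without LPS it was -2.02, -2.99 and -3.40 in Hdac3f/f and -2.07, -1.45 and -1.08 in Lyz2-Cre libraries (difference 1.27, exact p = 0.2). That overlap rests on the library low in Lyz2, at -2.07, without which the untreated genotypes did not overlap and differed by 1.54. Replicate 1 of each LPS group had the highest ratio of its group.

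Both IL-10 receptor chains were lower in Lyz2-Cre cells under LPS. Il10ra (ENSMUSG00000032089, chromosome 9, 45253837 to 45269149), the chain that gives the receptor its specificity for IL-10, lay at 164.3, 148.4 and 151.0 CPM untreated and at 287.1, 295.0 and 331.2 CPM with LPS in Hdac3f/f cells. In Lyz2-Cre cells it lay at 160.7, 162.0 and 173.3 CPM untreated and at 192.0, 178.3 and 183.6 CPM with LPS. The LPS-treated Hdac3f/f libraries were far above the rest. LPS raised Il10ra by 0.98 ± 0.09 log2 units in Hdac3f/f (adjusted p = 8.26e-07), the change in Lyz2-Cre cells was 0.16 ± 0.09 (adjusted p = 0.151; -0.23 when scaled by library totals), and the responses differed by -0.82 ± 0.13 (adjusted p = 0.00281). With LPS it was 1.65-fold lower in Lyz2-Cre cells (log2 -0.72 ± 0.09, adjusted p = 2.33e-04), and without LPS the difference was 0.10 ± 0.09 (adjusted p = 0.498).

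Il10rb (ENSMUSG00000022969, chromosome 16, 91406164 to 91425834), the second chain, which receptors for IL-22 and type III interferons also use, lay between 111.0 and 128.6 CPM in the 9 libraries of the other groups and at 78.3, 78.5 and 80.2 CPM in LPS-treated Lyz2-Cre cells. The fall with LPS in Lyz2-Cre cells was called (log2 -0.57 ± 0.08, adjusted p = 7.24e-05), and in Hdac3f/f the change was -0.07 ± 0.08 (adjusted p = 0.487). With LPS Il10rb was 1.49-fold lower in Lyz2-Cre cells (log2 -0.57 ± 0.08, adjusted p = 5.31e-04). The interaction of -0.50 ± 0.12 (adjusted p = 0.0213) lost its call without replicate 2 of untreated Hdac3f/f, replicate 3 of LPS-treated Hdac3f/f, replicate 1 or 2 of untreated Lyz2-Cre or any replicate of LPS-treated Lyz2-Cre cells (adjusted p from 0.0512 to 0.0798). The log2 ratio of Il10ra to Il10rb counts was 0.47, 0.27 and 0.23 in untreated Hdac3f/f and 0.41, 0.47 and 0.59 in untreated Lyz2-Cre libraries, which overlapped. It was 1.37, 1.36 and 1.39 in LPS-treated Hdac3f/f and 1.29, 1.18 and 1.19 in LPS-treated Lyz2-Cre libraries (difference of means -0.15, exact two-sided permutation p = 0.1, adjusted 0.2). Gm20612, a pseudogene within Il10ra, held 87 counts against 41897 for Il10ra.

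**Figure D4:**
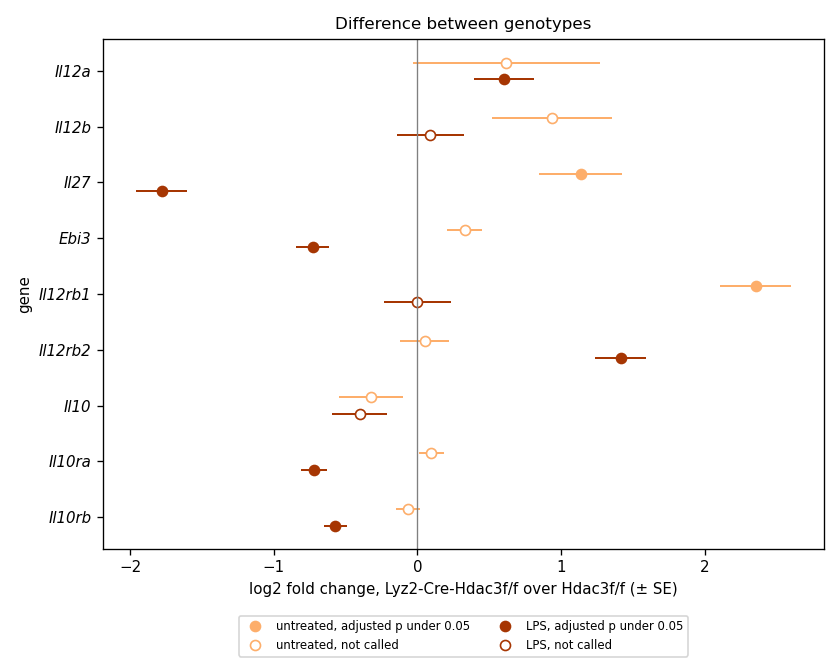
Log2 fold change of Lyz2-Cre over Hdac3f/f cells (horizontal axis) for each tested gene without and with LPS, with the standard error as a bar and calls as filled points. Il27 lies at 1.14 without and -1.78 with LPS, Il12rb1 at 2.35 and 0.00, and Il12rb2 at 0.05 and 1.42.

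The authors' deposited table holds its own test of the genotypes, signed as Hdac3f/f over Lyz2-Cre. In the authors' deposited table the adjusted p with LPS was 1.28e-18 for Il27 (log2 1.79), 5.31e-07 for Ebi3, 6.57e-07 for Il10ra, 1.87e-04 for Il10rb, 4.89e-07 for Il12rb2 (log2 -1.41) and 0.00390 for Il12a. Without LPS the authors' deposited table gives 1.17e-34 for Il12rb1 (log2 -2.32) and 0.0658 for Il27, so that Il27 without LPS was called in the edgeR fit and not there.

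Among 8 receptor partners and signalling genes, LPS raised 5 and lowered 1 in each genotype (median log2 1.59 in Hdac3f/f and 0.96 in Lyz2-Cre cells). Of all tested genes 60.1% were called with LPS in Hdac3f/f and 52.9% in Lyz2-Cre cells. Without LPS 1 of the 8 was higher in Lyz2-Cre cells, Il23r, and none lower, beside 11.8% of all tested genes called. With LPS 3 of 8 were called, a share near the 32.6% of all tested genes. Of these 1 was higher, the shared IL-27 and IL-6 receptor chain Il6st (0.55 ± 0.16, adjusted p = 0.0214), and 2 were lower, the kinase gene Tyk2, which serves the IL-12 and IL-10 receptors (-1.02 ± 0.12, adjusted p = 1.42e-04), and Stat3, the main IL-10 transducer (-0.44 ± 0.10, adjusted p = 0.00705). Tyk2 lay at 268.3, 353.4 and 334.8 CPM in LPS-treated Hdac3f/f and at 143.3, 156.1 and 172.5 CPM in LPS-treated Lyz2-Cre cells. These did not overlap, as was so for 43.2% of all tested genes. The other chain of the IL-27 receptor, Il27ra, had mean levels between 1.498 and 3.28 CPM and was not called in any of the 5 comparisons, with adjusted p from 0.0742 to 0.891.

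Transcriptional regulators of Il12b, Il23a and Il27, a list that holds both activators and repressors, were mostly raised by LPS, and most were lower in Lyz2-Cre cells with LPS. Of 13, LPS raised 12 in Hdac3f/f and 11 in Lyz2-Cre cells, beside 28% and 25.2% of all tested genes. With LPS 8 of the 13 were lower in Lyz2-Cre cells and none higher (median -0.60, beside 0.02 over all tested genes, of which 16.9% were lower), and without LPS 1 was higher, Irf1 (0.50 ± 0.14, adjusted p = 0.0372). Those of lowest p with LPS were Irf5 (-1.04 ± 0.15, adjusted p = 5.37e-04), Atf3, a repressor of inflammatory genes (-1.02 ± 0.15, adjusted p = 6.20e-04), Irf1 (-0.90 ± 0.14, adjusted p = 6.76e-04) and the NF-kB subunit Rela (-0.60 ± 0.13, adjusted p = 0.00475). Irf1, an interferon regulatory factor that acts on Il27 and Il12a, lay at 1011, 1069 and 1320 CPM in LPS-treated Hdac3f/f and at 631.3, 577.8 and 608.6 CPM in LPS-treated Lyz2-Cre cells. The NF-kB genes Rel (0.11 ± 0.21), Nfkb1 (-0.17 ± 0.09) and Nfkbiz (0.09 ± 0.16) were not called between genotypes with LPS.

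Of 11 regulators of Il10, LPS raised 6 and lowered 3 in Hdac3f/f, and raised 6 and lowered 1 in Lyz2-Cre cells. Over all tested genes 60.1% and 52.9% were called with LPS in these genotypes. With LPS 4 of the 11 were called between genotypes, a share near the 32.6% of all tested genes. Higher in Lyz2-Cre cells were the kinase genes Mapk14 (0.50 ± 0.10, adjusted p = 0.00388) and Rps6ka5 (0.95 ± 0.28, adjusted p = 0.0212). Another 2 were lower, Zfp36, whose product tristetraprolin destabilises Il10 and other cytokine mRNAs (-1.41 ± 0.15, adjusted p = 9.04e-05), and Crtc2 (-0.44 ± 0.13, adjusted p = 0.0186). Zfp36 was also lower without LPS (-0.56 ± 0.14, adjusted p = 0.0282; -0.60, adjusted p = 0.0612, without the library low in Lyz2), where Nfil3 was higher (0.95 ± 0.19, adjusted p = 0.00776). Maf, a factor that binds the Il10 promoter, had mean levels between 965.5 and 1313 CPM and genotype differences of 0.01 ± 0.10 and 0.03 ± 0.10.

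Of 8 genes known to respond to IL-10 in macrophages, LPS raised 8 in Hdac3f/f and 7 in Lyz2-Cre cells. Over all tested genes it raised 28% and 25.2%. With LPS 7 of the 8 were lower in Lyz2-Cre cells and none higher (median -0.71, where 16.9% of all tested genes were lower). Several of these genes also answer LPS without IL-10. The list included the corepressor genes Sbno2 (-0.73 ± 0.11, adjusted p = 7.25e-04) and Etv3 (-0.80 ± 0.16, adjusted p = 0.00304), Tnip3 (-0.56 ± 0.11, adjusted p = 0.00218) and the interleukin 1 receptor antagonist gene Il1rn (-1.08 ± 0.23, adjusted p = 0.00418). Without LPS, Nfil3 was higher and Tnip3 lower (-1.02 ± 0.11, adjusted p = 2.05e-04). Socs3, the feedback inhibitor that STAT3 induces, rose by 8.84 ± 0.33 in Hdac3f/f and by 7.87 ± 0.32 in Lyz2-Cre cells, and was lower in LPS-treated Lyz2-Cre cells (-0.70 ± 0.24, adjusted p = 0.0388).

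**Figure D5:**
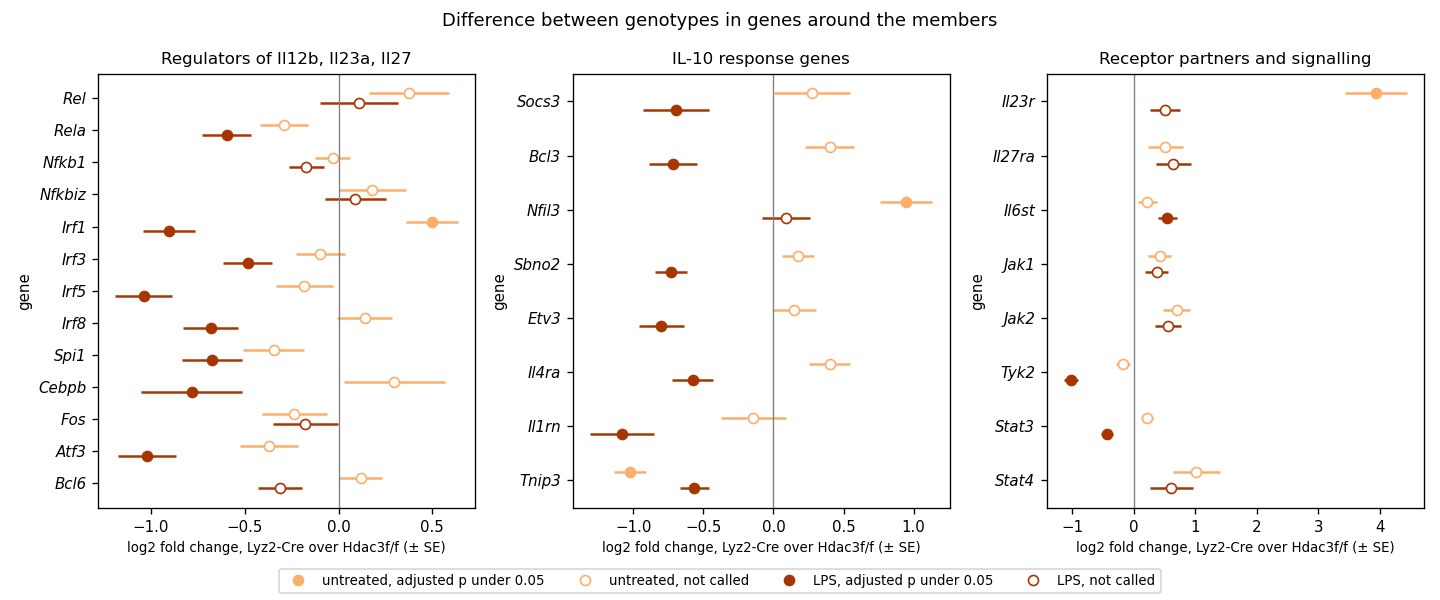
Log2 fold change of Lyz2-Cre over Hdac3f/f cells (horizontal axes) for the regulators of Il12b, Il23a and Il27, the IL-10 response genes and the receptor partners, without and with LPS, with the standard error as a bar and calls as filled points. With LPS, 8 of 13 regulators and 7 of 8 IL-10 response genes were called lower in Lyz2-Cre cells and none higher. Of all tested genes 16.9% were called lower.

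Genes that IL-12 and IL-23 are known to induce in lymphocytes were read out too. Ifng had 3 and 5 counts in the untreated Hdac3f/f and Lyz2-Cre groups and lay at 37.3, 37.9 and 86.4 CPM in Hdac3f/f and at 43.0, 46.8 and 52.0 CPM in Lyz2-Cre cells with LPS, with an uncalled genotype difference of -0.19 ± 0.27 (adjusted p = 0.616). Il22 gave 50 counts in LPS-treated Hdac3f/f and 32 in LPS-treated Lyz2-Cre cells, with 0 and 1 counts untreated, and Il17a 13 counts in all. In the Il10 gene cluster, Il19 gave 0 counts in all 6 untreated libraries and 88 and 114 counts with LPS, which is at least 45.2-fold higher in Hdac3f/f and at least 48.2-fold higher in Lyz2-Cre cells against a floor of 3 counts over the untreated group. Il20 and Il24 gave 0 counts in 12 libraries. Mapkapk2, the neighbour of Il10 at 28.7 kb and a kinase of the p38 pathway, rose by 3.21 ± 0.17 and 2.78 ± 0.16 and was lower in LPS-treated Lyz2-Cre cells (-0.61 ± 0.15, adjusted p = 0.0104).

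The tested genes nearest to these on the chromosome are set beside them as a description. Beside Il27, Cln3 at 3.2 kb had a genotype difference of -0.28 with LPS, which was not called, Nupr1 at 28.3 kb of -0.42, and Sgf29 at 54.4 kb of 0.77, both called, beside -1.78 for Il27. Beside Il12b, Ublcp1 at 40.5 kb rose by 1.63 and 1.40 with LPS in Hdac3f/f and Lyz2-Cre cells, and Rnf145 at 104.9 kb by 2.40 and 1.76. Stat2, at 3.3 kb from the nearly silent Il23a, rose by 1.72 and 0.74. Ifnar2, at 0.6 kb from Il10rb and a chain of the type I interferon receptor, rose by 0.89 and 0.57 with LPS and was 0.26 lower in LPS-treated Lyz2-Cre cells. Next to Il12rb1, Arrdc2 at 13.7 kb had a genotype difference of 0.18 without LPS, which was not called, against 2.35 for Il12rb1.

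Genes with the most similar course over the 12 libraries were found among 12154 tested genes by the root mean square difference of centred log2 CPM, which is a description. For Il12b they were Mir155hg (0.39), Gbp5 (0.43) and Tarm1 (0.51), all of which had larger interactions (-2.82, -1.72 and -2.22) than Il12b. For Il27 they were Gpr84 (0.46), Acod1 (0.53) and Cxcl11 (0.54), with genotype differences of -1.08, -0.79 and -2.17 with LPS. For Il12rb1 they were Ly6c2 (0.44), Treml2 (0.46) and Gpr15 (0.46), higher by 1.46, 1.17 and 1.87 in untreated Lyz2-Cre cells. For Il10 they were Junb (0.26), Lacc1 (0.27) and Nfkb2 (0.28), with rises of 3.85, 3.63 and 4.00 with LPS in Hdac3f/f. Among the 9 genes themselves the closest pair was Il10ra with Il10rb (0.46), followed by Il12a with Il12b (0.64).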

How the data were processed

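The deposited counts, made by the authors, are whole reads per gene in 12 libraries. The submitters' processing notes name TopHat2 and mm10 without versions. The counting tool, annotation release and use of strand are not given in the sources used here. The deposited FPKM values equal the count per kilobase of gene model divided by a library size other than the library total (12524047 to 23884972), and were only checked, not tested. The deposited group means are a signal of scaled counts, and the deposited log2 fold changes and p-values come from a test of the authors that is not named.

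From the counts, edgeR 4.0.16 (R 4.3.3) fitted all 4 groups in 1 quasi-likelihood model after its default expression filter (14286 of 54532 genes) and TMM scaling, with factors from 0.716 to 1.26. P-values were adjusted by Benjamini and Hochberg over all tested genes for each of 5 contrasts. Log2 ratios of counts within a library used a pseudocount of 0.5 and an exact two-sided permutation test. Replicate libraries differed beyond sampling noise (chi-square per gene from 8.70 to 51.5), so none was a copy. The fit was tested on simulated counts. Alternatives were DESeq2 1.42.0, other scalings, filters, a replicate block and leaving out each library. Promoter windows came from RefSeq.

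The 10 genes and all gene lists were chosen with earlier results of these data known. Some genes of the lists are not reported here and were left out of the lists' counts. All members were named, and at most 4 genes of a list in a comparison (those of lowest p, and uncalled ones set beside them). Socs3 was chosen after its values were seen. Ncr1, Cd3e and Cd209a were named outside the rule of lowest p. Neighbours came from the 2 nearest tested genes on each side, and the 3 genes of most similar course were named for each of 4 members.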

Additional observations from a re-analysis of the deposited data

Results flagged for a closer look

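The response to LPS was compared between the genotypes by the test of the interaction of genotype and LPS in edgeR. It called 8.12% of all tested genes and 6 of the 9 tested genes of the set. As log2 differences between the responses (Lyz2-Cre minus Hdac3f/f), these were -2.92 for Il27, -1.06 for Ebi3, -2.35 for Il12rb1, 1.37 for Il12rb2, -0.82 for Il10ra and -0.50 for Il10rb. In each of them the 3 libraries a group are too few for a test of single libraries that stand apart.

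The same test called 12 genes of the lists around them, beside 8.12% of all tested genes (4.92% without the library low in Lyz2). Among 8 receptor partners these were Il23r (-3.42), Tyk2 (-0.84) and Stat3 (-0.65). Among 13 regulators of Il12b, Il23a and Il27 these were Irf1 (-1.40), Irf5 (-0.86) and Irf8 (-0.82). Among 11 regulators of Il10 these were Mapk14 (0.54) and Zfp36 (-0.85). Among 8 IL-10 response genes these were Bcl3 (-1.12), Sbno2 (-0.91), Etv3 (-0.94) and Il4ra (-0.98). Without the untreated Lyz2-Cre library low in Lyz2, the calls of Irf5 (adjusted p = 0.0607), Irf8 (0.0676), Mapk14 (0.0853) and Zfp36 (0.0583) were lost.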

How the results depend on the processing

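Of 845 values for single genes under an alternative, 795 kept their direction and side of the threshold, 20 lost and 6 gained a call and 24 changed sign. None of the 28 called values changed sign, and 3 lost their call under some alternative. Il27 without LPS was not called with only the untreated groups fitted (adjusted p = 0.0601), which left 1 called gene of the set in place of 2, and leaving out 1 library gave 1 to 2. Il12a with LPS was not called with DESeq2's size factors in edgeR (adjusted p = 0.0542) or without any of the 6 libraries named above. The Il10rb interaction was not called with library totals (adjusted p = 0.139), no filter (adjusted p = 0.129) or without any of the 7 libraries named above. The causes were not tested.

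Scaling by library totals, in place of TMM, moved the median log2 fold change of all tested genes from -0.08 to -0.72 (LPS in Hdac3f/f), from -0.08 to -0.46 (LPS in Lyz2-Cre), from 0.02 to 0.29 (genotypes with LPS) and from 0.02 to 0.27 (interaction). Under it Il12rb2 (-0.88) and Il10rb (-0.71) were called lower with LPS in Hdac3f/f, Il12rb1 (-0.65) lower with LPS in Lyz2-Cre cells and Ebi3 (0.35) higher without LPS. Il12b without LPS was called higher without a filter (adjusted p = 0.0259), and Il12rb1 was called lower with LPS in Lyz2-Cre cells with only those groups fitted (adjusted p = 0.0414). Uncalled values changed sign with library totals for Il10ra with LPS in Lyz2-Cre (-0.23), Il12rb1 between genotypes with LPS (0.28) and the interactions of Il12a (0.23) and Il10 (0.16), without a filter for the Il12a interaction (0.0016), and with only the LPS groups for Il12rb1 (0.014).

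Leaving out single libraries, uncalled values ranged from -0.57 to 1.10 (Il12a) and from -0.036 to 0.12 (Il12rb2) between genotypes without LPS, from -0.064 to 0.41 (Il12b) and from -0.24 to 0.33 (Il12rb1) with LPS, and from -0.50 to 1.17 (Il12a) and from -0.22 to 0.18 (Il10) for the interaction. The count of all called genes without LPS (1684) was 779 to 948 without any of 5 untreated libraries and 2530 without the other, replicate 1 of Hdac3f/f. The count with LPS (4656) ranged from 2798 to 6004, and was at most 3071 without replicate 2 or 3 of LPS-treated Hdac3f/f or replicate 1 or 2 of LPS-treated Lyz2-Cre cells. The interaction count (1160) was 1995 without replicate 1 of LPS-treated Hdac3f/f, and 530 to 722 without replicate 2 of untreated or replicate 3 of LPS-treated Hdac3f/f, any untreated Lyz2-Cre library or replicate 1 or 2 of LPS-treated Lyz2-Cre cells. DESeq2 put it at 1747. Libraries with the same replicate number did not deviate together (5 of 18 pairs correlated above 0.1, median 0.04). A replicate block left all counts of called genes in the set as they were, gave 1886, 4990 and 1196 called genes without LPS, with LPS and for the interaction, and turned the sign of Il12rb1 with LPS (0.015, uncalled). Without the Lyz2-Cre library low in Lyz2, an alternative chosen after seeing the data, some counts of called genes moved by over 1.5 times. Between genotypes without LPS these were T and NK cell markers (7 to 2), dendritic cell markers (2 to 1), neutrophil markers (1 to 0) and regulators of Il10 (2 to 1). In the LPS response of Lyz2-Cre cells, stromal markers called higher and lower went from 1 and 0 to 1 and 3. Neutrophil markers there went from 1 and 0 to 1 and 2, and erythroid markers from 0 to 1 higher. In the interaction these were regulators of Il12b, Il23a and Il27 (3 to 1) and of Il10 (2 to 0, with 5 at an unadjusted p under 0.05). Depth limits Il23a and the untreated levels of Il12a.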
